A study of Homo sapiens with 12 samples.

Results

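The liprin family was examined in RCC4 cells, an established line from a human clear cell renal carcinoma that lacks functional VHL, so that HIF-1α and HIF-2α persist at normal oxygen. Its members were chosen by gene symbol, and all 6 (PPFIA1, PPFIA2, PPFIA3, PPFIA4, PPFIBP1 and PPFIBP2) had a row among the 23106 gene symbols counted. The family was picked because PPFIA4 was already known to fall with HIF1A siRNA in these libraries, so the comparison of HIF1A siRNA with control siRNA is described here and not tested. Cells of this 1 line received 2 nM siRNA in total for 48 h. Control cells had 2 nM control siRNA, the HIF1A siRNA cells had 1 nM of it with 1 nM control siRNA, the HIF2A siRNA cells (targeting EPAS1, which encodes HIF-2α) likewise had 1 nM with 1 nM control siRNA, and the double knockdown had 1 nM of each HIF siRNA. Each condition had 3 replicates, and bulk RNA-seq gave 12 libraries. The question asked of the siRNAs was which genes depend on HIF-1 and which on HIF-2.

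Liprins are scaffold proteins that carry coiled coils in the N-terminal part and SAM domains in the C-terminal part. The alpha-liprins (PPFIA1 to PPFIA4) bind the LAR-type receptor tyrosine phosphatases and ELKS, RIM and GIT proteins, and organise presynaptic active zones in neurons and, through liprin-α1, cortical platforms beside focal adhesions in epithelial and tumor cells. The beta-liprins (PPFIBP1 and PPFIBP2) do not bind these phosphatases themselves but pair with alpha-liprins, and liprin-β1 joins KANK proteins at the cell cortex. HIF-1 and HIF-2 are transcription factors, each an alpha subunit paired with ARNT, that bind DNA at a short motif whose core is ACGTG or GCGTG.

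The sequences before the start sites are shown to set the promoter of PPFIA4 beside those of the paralogs described below. Each is the 250 bases before the RefSeq start on GRCh38.p14, plus strand, 5′ to 3′, and capitals mark ACGTG and GCGTG read on either strand. The windows were chr1:203026241-203026490 for PPFIA4, chr11:70270440-70270689 for PPFIA1, chr12:27523956-27524205 for PPFIBP1 and chr11:7513749-7513998 for the first of the PPFIBP2 start sites. The counts themselves were made on hg19.
PPFIA4: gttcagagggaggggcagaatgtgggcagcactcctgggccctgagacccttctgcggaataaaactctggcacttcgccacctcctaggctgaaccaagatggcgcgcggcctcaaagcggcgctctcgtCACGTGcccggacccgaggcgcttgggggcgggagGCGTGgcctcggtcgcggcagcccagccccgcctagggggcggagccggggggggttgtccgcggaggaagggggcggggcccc
PPFIA1: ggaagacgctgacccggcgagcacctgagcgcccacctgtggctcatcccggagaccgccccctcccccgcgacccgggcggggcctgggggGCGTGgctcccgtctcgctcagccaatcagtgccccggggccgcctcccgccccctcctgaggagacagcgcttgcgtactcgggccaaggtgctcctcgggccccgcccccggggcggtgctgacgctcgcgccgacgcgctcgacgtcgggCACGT
PPFIBP1: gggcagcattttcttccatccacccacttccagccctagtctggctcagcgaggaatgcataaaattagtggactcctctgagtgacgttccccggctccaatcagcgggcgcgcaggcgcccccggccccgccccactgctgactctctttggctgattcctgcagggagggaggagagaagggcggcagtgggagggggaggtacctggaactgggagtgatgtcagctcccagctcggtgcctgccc
PPFIBP2: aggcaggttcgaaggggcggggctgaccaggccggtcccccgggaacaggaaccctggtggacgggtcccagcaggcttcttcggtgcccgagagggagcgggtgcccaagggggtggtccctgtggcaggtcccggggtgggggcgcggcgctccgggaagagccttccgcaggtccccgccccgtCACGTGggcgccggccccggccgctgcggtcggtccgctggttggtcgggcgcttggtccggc
The PPFIA4 window held ACGTG on both strands, overlapping as CACGTG and starting 119 and 118 bases before the start, and GCGTG at 84 bases. CACGTG also stood in the PPFIBP2 window, with its ACGTG matches at 63 and 62 bases. The PPFIA1 window held GCGTG at 158 bases and ACGTG on the minus strand 5 bases before the start, the PPFIA3 window held GCGTG at 23 bases, and the PPFIBP1 window held neither motif. Of the 3 PPFIA2 windows, 1 held GCGTG at 155 and 149 bases and ACGTG at 129, as many matches as PPFIA4, in a gene with 0 counts. A second PPFIBP2 window held GCGTG at 121 bases. Of 35116 RefSeq windows of 250 bases, 43.2% held at least 1 of the motifs, 18.5% ACGTG, 32.2% GCGTG and 6.34% CACGTG, so a match is common and is given as a description only.

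In control cells, PPFIA4 and PPFIA1 were the most abundant liprin transcripts per length, with PPFIBP1 close below. Levels were compared as CPM, the usual count scaled to the size of its library, per kb of the main transcript of each gene (GENCODE v44). PPFIA4 stood at 12.8 ± 3.68 (SD, n = 3 here and for every mean below), PPFIA1 at 12.2 ± 1.27 and PPFIBP1 at 10.0 ± 3.80 CPM per kb, and these neighbours in the order differed by less than the spread between replicates. PPFIA3, an alpha-liprin best known from brain, followed at 1.30 ± 0.309 and PPFIBP2 at 0.553 ± 0.289 CPM per kb. PPFIA2, another alpha-liprin of neurons, had 0 counts in all 12 libraries, which allows a level of up to 0.146 to 0.226 CPM per library (3 counts, counting error only). Divided by the union of all exons of a gene instead, a scale chosen after the data were seen, PPFIA4 stood at 8.60 ± 2.47, above all PPFIA1 libraries (5.46 ± 0.569) and over PPFIBP1 (5.14 ± 1.95), so how far it stood above these paralogs depended on the length assumed.

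PPFIA4, which encodes liprin-α4, was high in cells given control or HIF2A siRNA and low in both conditions that contained HIF1A siRNA. With control siRNA it measured 106, 86.3 and 58.3 CPM in replicates 1, 2 and 3 (1730, 1721 and 941 counts). With HIF1A siRNA it measured 6.20, 6.69 and 5.11 CPM (117, 93 and 105 counts), which left 5.84, 7.75 and 8.76% of the control level in the 3 pairs. The groups did not overlap (7.06% of all genes had ranges apart), and the fitted log2 fold change was -3.76 (SE 0.16). This is the difference the family was chosen for, so no test of it is given here. In bulk RNA, fewer cells with the transcript and less transcript per cell cannot be told apart.

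**Figure D1:**
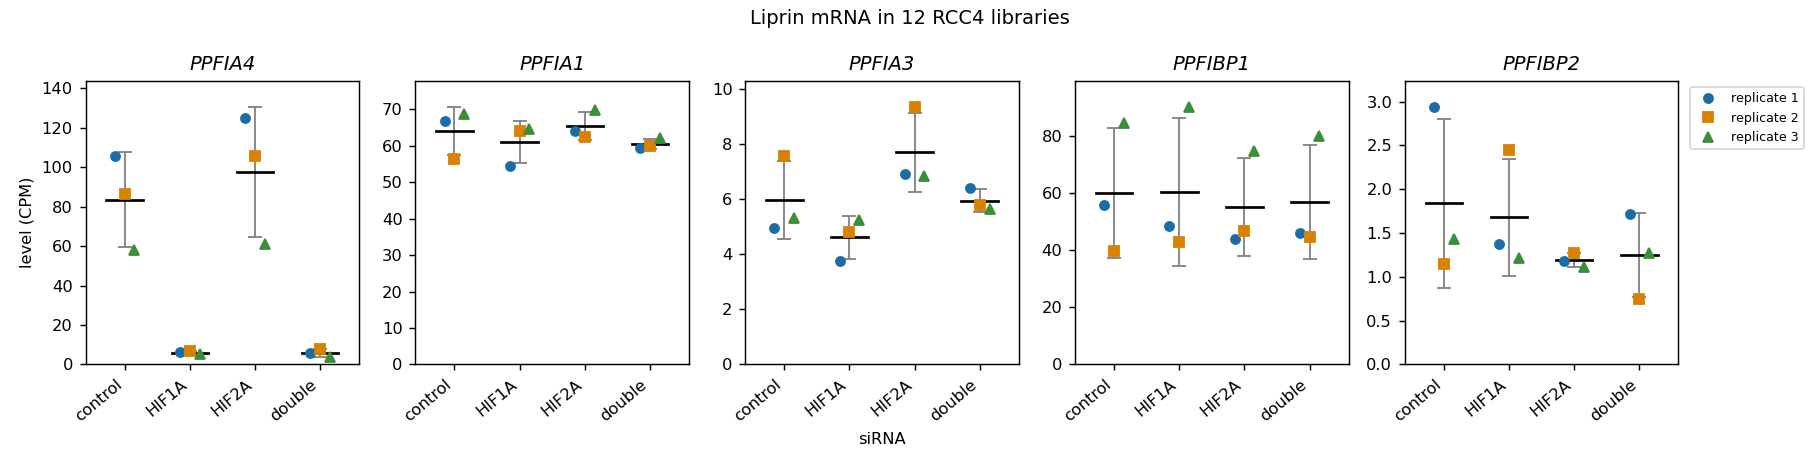
Level of each detected liprin gene in CPM (y axis, linear, from 0) by siRNA (x axis), with points for the 3 replicates, a black line for the mean and grey bars for the SD. PPFIA4 drops from 58.3 to 106 CPM with control siRNA to 5.11 to 6.69 CPM with HIF1A siRNA, and no other gene shows a drop of that size.

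The double knockdown and HIF2A siRNA libraries gave a comparison of PPFIA4 that shares no library with HIF1A siRNA against control siRNA. The double knockdown also received HIF1A siRNA, and PPFIA4 was chosen with earlier results of these data known. Its p-values here are therefore not independent of that choice. The fit took its spread from all 12 libraries, so a fit of these 6 alone was added after the data were seen. With HIF2A siRNA, PPFIA4 measured 125, 106 and 61.3 CPM (2343, 1673 and 1156 counts), and in the double knockdown 5.91, 8.05 and 3.65 CPM (117, 107 and 75 counts). All 3 double knockdown libraries lay below all 3 HIF2A siRNA libraries, at 4.71, 7.56 and 5.96% of them within pairs. In this comparison 9.89% of all genes had ranges apart. PPFIA4 fell by 4.06 on the log2 scale (SE 0.17, 95% interval -4.43 to -3.70), which is 16.7-fold lower (edgeR, adjusted p = 2.2e-09). In the fit of the 6 libraries alone its log2 fold change was -4.07 with an adjusted p of 0.00014. PPFIA4 was the only one of 5 liprin genes tested that passed, against 4% of all 13000 genes (3.22% lower).

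Each targeted gene was lower than with control siRNA wherever its own siRNA was given. HIF1A stood at 96.7 ± 33.6 CPM with control siRNA, 18.3 ± 3.62 with HIF1A siRNA, 121 ± 13.3 with HIF2A siRNA and 28.7 ± 4.09 in the double knockdown. Between the double knockdown and HIF2A siRNA it fell by 2.07 on the log2 scale (SE 0.21, adjusted p = 2.1e-05, edgeR), and EPAS1 stood at 157 ± 16.9, 114 ± 17.7, 10.1 ± 1.53 and 8.94 ± 2.16 CPM in the same order of conditions. EPAS1 with HIF1A siRNA alone stood at 62.2, 77.1 and 78.5% of control siRNA in the pairs, with ranges apart (7.06% of all genes). Its log2 fold change was -0.47 (SE 0.15, adjusted p = 0.28, edgeR). HIF1A in the double knockdown stood at 161, 180 and 134% of HIF1A siRNA alone, with ranges apart (8.38% of all genes). Its log2 fold change was 0.66 (SE 0.21, adjusted p = 0.18, edgeR), and neither difference passed.

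For HIF2A siRNA, alone or on top of HIF1A siRNA, the interval of the PPFIA4 change included 0. Against control siRNA it measured 118, 123 and 105% in the pairs, with a log2 fold change of 0.22 (SE 0.14, 95% interval -0.08 to 0.52). The double knockdown measured 95.4, 120 and 71.5% of HIF1A siRNA, with a log2 fold change of -0.09 (SE 0.18, 95% interval -0.48 to 0.30). Both of these share libraries with the comparison that chose PPFIA4 and are given without a p. Changes of a size inside these intervals cannot be told from none. Against control siRNA the double knockdown stood at 5.58, 9.32 and 6.26%, with a log2 fold change of -3.86 (SE 0.17). The change with both siRNAs departed from the sum of the single changes by -0.30 on the log2 scale (SE 0.23).

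PPFIA4 also varied with the replicate number, to a lesser extent than with HIF1A siRNA. Replicate 3 was the lowest of its group in all 4 conditions, and with control siRNA it had 58.3 CPM where the others had 86.3 and 106. The PPFIA4 libraries with and without HIF1A siRNA were nonetheless apart in every replicate number.

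**Figure D2:**
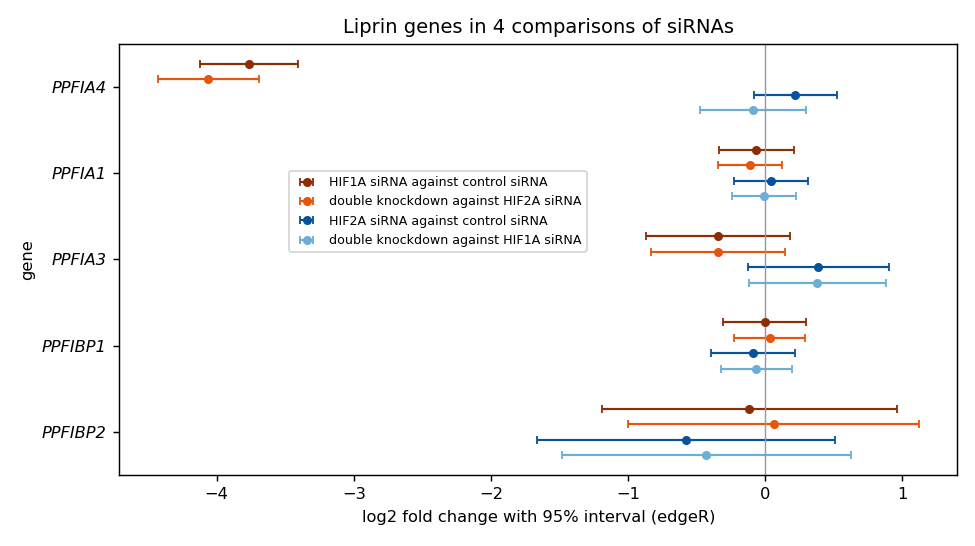
Fitted log2 fold change (x axis) of 5 liprin genes (y axis) in 4 comparisons, with bars for the 95% interval from edgeR. For PPFIA4 both comparisons that add HIF1A siRNA lie near -4, at -3.76 and -4.06, and all intervals of the other genes cross 0.

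The other alpha-liprins did not pass the test in any comparison. PPFIA1, which encodes liprin-α1, a scaffold at the leading edge of migrating cells, measured 66.8, 56.4 and 68.8 CPM with control siRNA, 54.3, 64.0 and 64.7 with HIF1A siRNA, 63.9, 62.4 and 69.9 under HIF2A siRNA and 59.5, 59.9 and 62.1 in the double knockdown. The ranges overlapped except between the double knockdown and HIF2A siRNA, where the former lay below by a narrow margin; 9.89% of all genes had ranges that did not overlap there. In that comparison its log2 fold change was -0.11 (SE 0.11, 95% interval -0.35 to 0.12, adjusted p = 0.63, edgeR). This interval did not meet that of PPFIA4 in the same comparison. With HIF1A siRNA against control siRNA the log2 fold change of PPFIA1 was -0.07 (SE 0.13).

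PPFIA3, which encodes liprin-α3, was low in every library. It was lower in all 3 pairs of HIF1A siRNA against control siRNA and of the double knockdown against HIF2A siRNA, but at 129, 76.4 and 106% in the double knockdown against control siRNA. It measured 4.96, 7.58 and 5.33 CPM with control siRNA, 3.76, 4.82 and 5.25 with HIF1A siRNA, 6.91, 9.35 and 6.84 under HIF2A siRNA and 6.42, 5.79 and 5.65 in the double knockdown. Its double knockdown libraries all lay below the HIF2A siRNA libraries, where 9.89% of all genes had ranges apart. They also all lay above the HIF1A siRNA libraries, where 8.38% of all genes had ranges apart. Neither difference passed the test in edgeR, with a log2 fold change of -0.35 (SE 0.23, 95% interval -0.83 to 0.14, adjusted p = 0.46) against HIF2A siRNA and 0.38 (SE 0.23, adjusted p = 0.58) against HIF1A siRNA. With HIF2A siRNA alone it stood at 139, 123 and 128% of control siRNA in the pairs, with a log2 fold change of 0.39 (SE 0.24, adjusted p = 0.94, edgeR).

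The beta-liprins likewise gave no call. PPFIBP1, which encodes liprin-β1, measured 56.0, 39.7 and 84.7 CPM with control siRNA, 48.4, 42.8 and 90.3 with HIF1A siRNA, 43.9, 46.7 and 74.8 under HIF2A siRNA and 46.0, 44.7 and 79.9 in the double knockdown. Its values separated by replicate number and not by siRNA. The 4 libraries of replicate 3 lay between 74.8 and 90.3 CPM and the other 8 between 39.7 and 56.0, an arrangement in which 15.2% of all 13000 genes had replicate 3 apart and higher. With the replicate number as a block, its log2 fold change was 0.00 (SE 0.14) with HIF1A siRNA against control siRNA and 0.03 (SE 0.12, 95% interval -0.23 to 0.29, adjusted p = 0.92, edgeR) for the double knockdown against HIF2A siRNA.

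PPFIBP2, which encodes liprin-β2, was near the limit of what these libraries could measure, with 10 to 48 counts. It measured 2.94, 1.15 and 1.43 CPM with control siRNA, 1.38, 2.45 and 1.22 with HIF1A siRNA, 1.18, 1.27 and 1.11 under HIF2A siRNA and 1.72, 0.752 and 1.27 in the double knockdown. All groups overlapped. Its log2 fold change for the double knockdown against HIF2A siRNA was 0.06 (SE 0.50, adjusted p = 0.96, edgeR), and with HIF1A siRNA against control siRNA it was -0.12 (SE 0.50, 95% interval -1.19 to 0.96). Such an interval is too wide to detect a moderate change at this depth.

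Counted over the paralogs, none of the 4 tested passed with HIF2A siRNA against control siRNA (0.0857% of all genes did), in the double knockdown against HIF1A siRNA (1.4%), in the double knockdown against control siRNA (10.3%) or in the interaction of the siRNAs. In the interaction, edgeR called 0 of 13000 genes, with 318 at an unadjusted p under 0.05, and DESeq2 called 11. PPFIA2, with no counts, was not tested.

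The alpha-liprin sum followed PPFIA4. Together PPFIA1, PPFIA3 and PPFIA4 made 26.4 ± 3.45 CPM per kb of transcript with control siRNA, 13.6 ± 1.27 with HIF1A siRNA, 29.2 ± 4.51 with HIF2A siRNA and 13.7 ± 0.153 in the double knockdown. The share of PPFIA4 was 54.1, 51.7 and 38.5% in the control libraries and 7.84, 7.19 and 5.50% with HIF1A siRNA. It was 58.4, 54.0 and 38.8% with HIF2A siRNA and 6.65, 8.87 and 4.11% in the double knockdown. PPFIA1 made up the main part of what remained, at 82.1 to 86.9% of the alpha-liprin sum in the 6 libraries with HIF1A siRNA. These sums hold the difference PPFIA4 was chosen for and carry no test. On the exon union scale the PPFIA4 share was 56.5 ± 8.20, 9.50 ± 1.68, 58.4 ± 9.95 and 8.96 ± 3.19% in the order of conditions above.

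**Figure D3:**
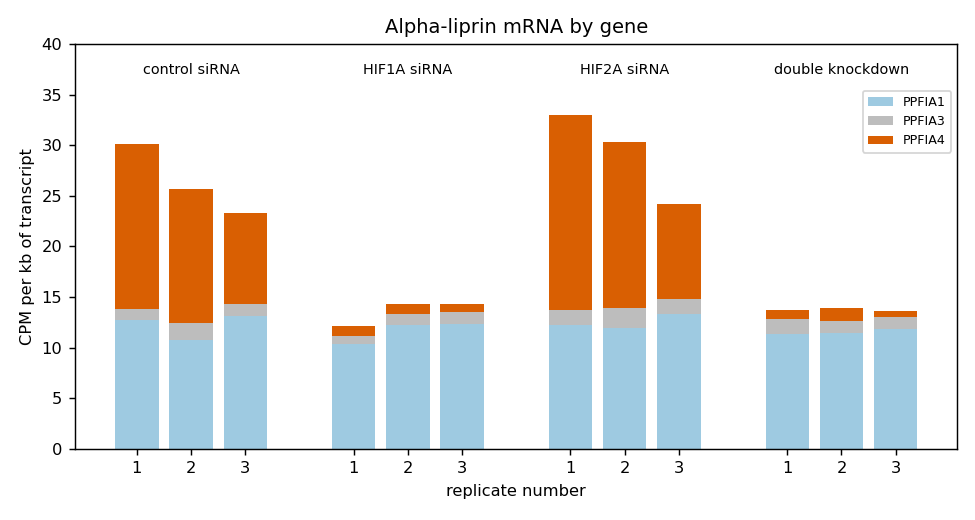
Stacked bars of alpha-liprin mRNA in CPM per kb of transcript (y axis, from 0) for the 12 libraries, by replicate number within each condition (x axis), coloured by gene. The PPFIA4 part takes 38.5 to 58.4% of the bar with control or HIF2A siRNA and 4.11 to 8.87% where HIF1A siRNA was present, while the PPFIA1 part keeps a similar height.

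The liprin transcripts share little sequence. Over the main transcripts, the longest exact run that PPFIA4 shared with another member was 29 bases (with PPFIA3 and with PPFIA1), and 0 of its 6409 windows of 100 bases occurred in a transcript of any other gene. No other gene has exons over those of PPFIA4 or PPFIA3 in the annotation. PPFIA1 shared 3.33% of such windows with antisense transcripts and PPFIA2 28.5% with ACSS3 on the opposite strand. PPFIBP1 shared 1.12% with another annotated gene, and 1.84% of the exon bases of PPFIBP2 lay under SYT9-AS1 on the opposite strand. The strand setting of the counting is not given in the sources used here, so such overlaps are uncertain.

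The genes beside PPFIA4 did not pass the test. Of the 3 nearest with a count row on each side, ADIPOR1, CYB5R1 and TMEM183A lie before it and MYOG, ADORA1 and MYBPH after it in RefSeq order. This held in every comparison. For the double knockdown against HIF2A siRNA, log2 fold changes in edgeR were 0.19 (SE 0.12, adjusted p = 0.41) for ADIPOR1, an adiponectin receptor, -0.29 (SE 0.15, adjusted p = 0.34) for CYB5R1, -0.64 (SE 0.37, adjusted p = 0.39) for TMEM183A and -0.04 (SE 0.12, adjusted p = 0.88) for ADORA1, an adenosine receptor. With HIF1A siRNA, TMEM183A stood at 88.2, 56.5 and 70.4% of control siRNA in the pairs, with ranges apart (7.06% of all genes). Its log2 fold change there was -0.50 (SE 0.32, adjusted p = 0.84, edgeR), and the ranges of ADIPOR1, CYB5R1 and ADORA1 overlapped. The muscle genes MYOG and MYBPH had 0 to 4 counts and were not tested.

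The genes whose profile most resembled that of PPFIA4 were BNIP3 (Pearson r 0.9953), PFKFB4 (0.9941), FGF11 (0.9937), GPI (0.9919) and HK2 (0.9915). The measure was the correlation of log2(CPM + 0.5), centred within replicate number, over the 12 libraries and among 12999 genes, and it is a description, since the libraries fall into 2 clusters by HIF1A siRNA. BNIP3 encodes a mitophagy receptor, PFKFB4 a regulator of fructose 2,6-bisphosphate, GPI and HK2 enzymes of glycolysis, and FGF11 an intracellular fibroblast growth factor homologue. For the double knockdown against HIF2A siRNA their log2 fold changes were -2.44, -3.10, -2.62, -0.95 and -0.94, all smaller in size than the -4.06 of PPFIA4. HIF1A itself ranked 62 with r 0.9592. Among the paralogs, PPFIA3 had r 0.5957 (rank 1445), PPFIA1 0.5541 (rank 1737), PPFIBP2 0.0192 (rank 6155) and PPFIBP1 -0.039 (rank 6690).

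**Figure D4:**
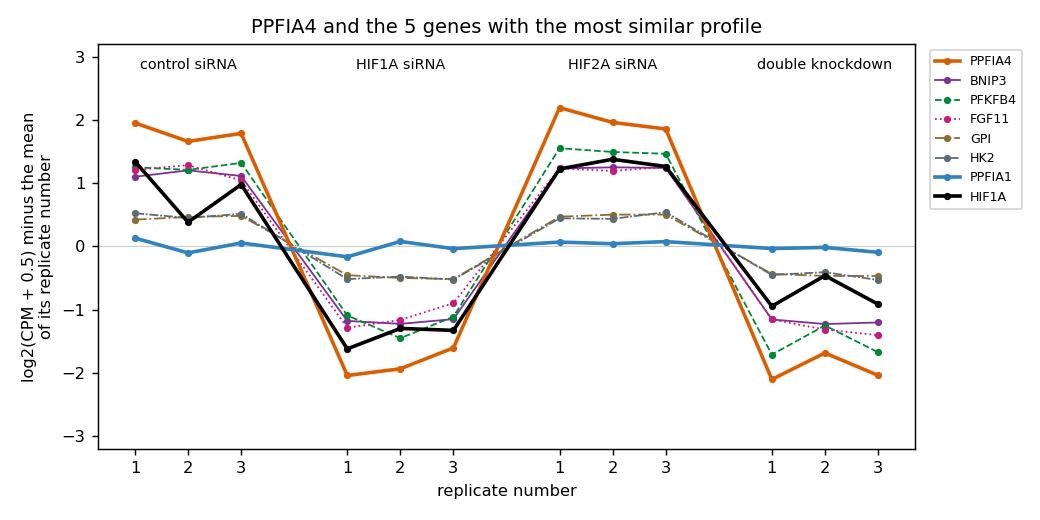
Profile of PPFIA4, its 5 most similar genes, PPFIA1 and HIF1A as log2(CPM + 0.5) minus the mean of each replicate number (y axis), in the 12 libraries by condition and replicate number (x axis). PPFIA4 has the widest swing and BNIP3 (r 0.9953) follows its shape, while PPFIA1 stays close to 0.

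Genes of liprin partners, or of complexes that liprins join, gave no call with a single siRNA and 3 in the double knockdown against control siRNA. They were taken as 4 lists of 32 genes in all, of which 27 were tested in the single siRNA comparisons and 28 in the others. The lists were LAR-type receptor phosphatases, a cortical microtubule complex, presynaptic active zone scaffolds and other liprin partners. All are called partner genes here, though a listed protein need not bind a liprin itself. None of the 27 passed with HIF1A siRNA (1.17% of all genes did; median log2 fold change -0.06, against 0.00 over all genes) or with HIF2A siRNA (0.0857%; median -0.02, against 0.01). In the double knockdown against control siRNA 3 of 28 passed, where 10.3% of all genes did. Of these, 1 was lower and 2 were higher, against 6.42% of all genes lower and 3.86% higher. In the double knockdown 1 was lower against HIF2A siRNA, where 4% of all genes passed (3.22% lower). The same gene, UNC13A, was lower against HIF1A siRNA, where 1.4% of all genes passed in either direction.

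UNC13A, which encodes the vesicle priming protein Munc13-1, was scarce in these cells. It measured 7.05, 2.01 and 3.41 CPM with control siRNA, 4.34, 2.01 and 1.41 with HIF1A siRNA, 2.73, 2.16 and 1.85 under HIF2A siRNA and 0.758, 0.301 and 0.730 in the double knockdown (15, 4 and 15 counts). The double knockdown libraries lay below those of each other condition. Ranges were apart for 15.6% of all genes against control siRNA, 9.89% against HIF2A siRNA and 8.38% against HIF1A siRNA. Against control siRNA it fell by 2.66 on the log2 scale (SE 0.45, adjusted p = 0.0014, edgeR), against HIF2A siRNA by 1.92 (SE 0.45, adjusted p = 0.027) and against HIF1A siRNA by 2.00 (SE 0.45, adjusted p = 0.043). The call against HIF2A siRNA was lost without replicate 1, 2 or 3, without HIF2A siRNA replicate 2 or 3 and without double knockdown replicate 1 or 2 (adjusted p 0.072 to 0.18), and in the fit of the 6 libraries alone (0.18). The call against HIF1A siRNA was lost in 11 of 15 such fits (0.054 to 0.37), and the call against control siRNA without replicate 1 (0.070). Without the replicate block the adjusted p was 0.36, 0.60 and 0.040 against HIF2A, HIF1A and control siRNA. The other 6 active zone genes tested with it did not pass in any comparison.

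The receptors and cortical partners gave 2 calls. PTPRD, a LAR-type receptor phosphatase, measured 96.7, 79.5 and 148 CPM with control siRNA and 135, 140 and 259 in the double knockdown, and rose in every pair by a fitted 0.69 on the log2 scale (SE 0.13, adjusted p = 0.0027, edgeR). KANK2, a partner of liprin-β1 and talin, measured 48.4, 54.4 and 55.4 CPM with control siRNA and 81.7, 87.8 and 84.0 in the double knockdown, with no overlap (15.6% of all genes had ranges apart) and a log2 fold change of 0.68 (SE 0.12, adjusted p = 0.0022, edgeR). Without replicate 3 the adjusted p was 0.11 for PTPRD and 0.060 for KANK2, and without the replicate block 0.60 and 0.072. KANK2 was also above control siRNA in every pair with a single siRNA, at 124, 109 and 137% (HIF1A siRNA) and 118, 150 and 133% (HIF2A siRNA). Its log2 fold changes there were 0.31 (SE 0.14, adjusted p = 0.65) and 0.43 (SE 0.14, adjusted p = 0.69, edgeR), and neither passed. PTPRF, which encodes LAR itself, was the most abundant of the phosphatases in CPM, at 674, 575 and 871 with control siRNA, and its log2 fold change was -0.42 (SE 0.12, adjusted p = 0.079, edgeR) for the double knockdown against HIF2A siRNA and -0.27 (SE 0.13, adjusted p = 0.73) with HIF1A siRNA against control siRNA. PTPRS, ERC1 (ELKS), PHLDB2, KANK1 and GIT1 did not pass in any comparison. ERC1 stood at 102 ± 43.1 CPM with control siRNA.

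**Figure D5:**
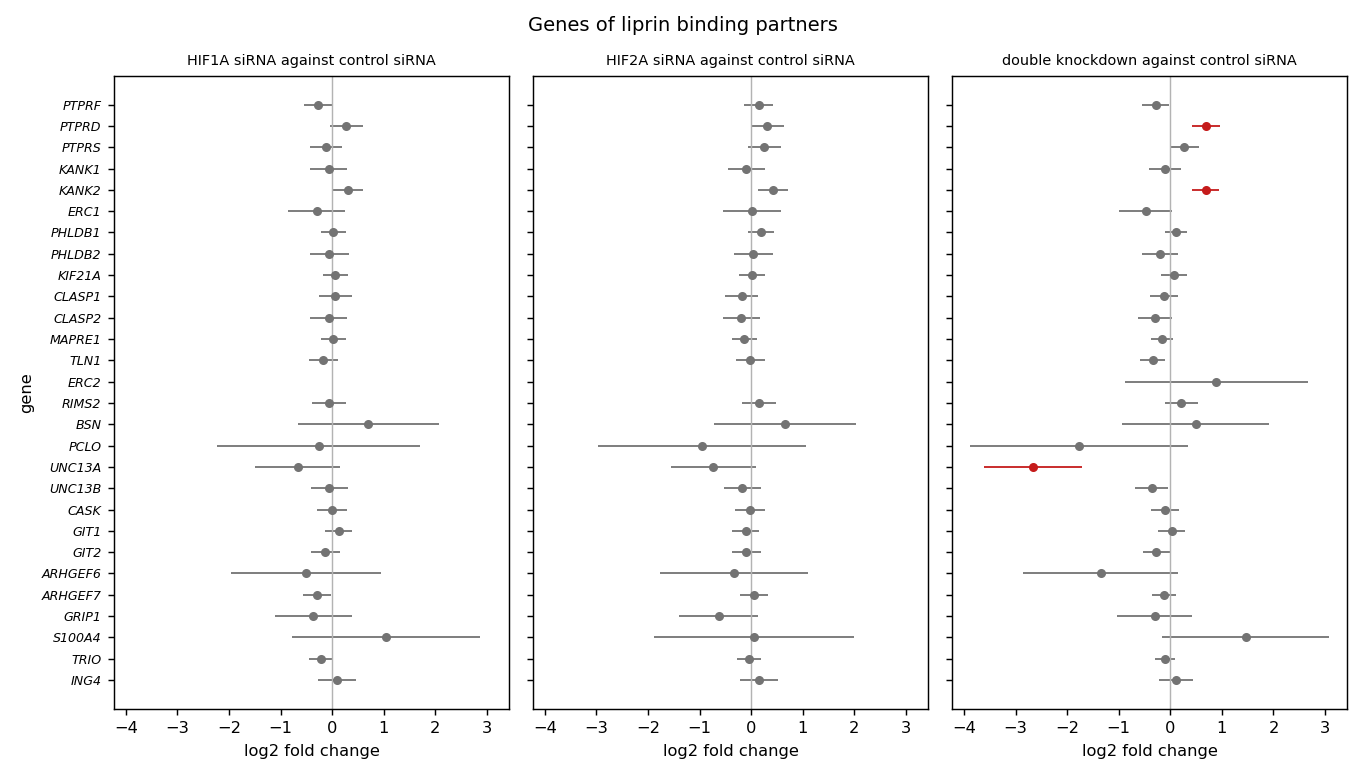
Fitted log2 fold change (x axis, with 95% intervals) of the tested liprin partner genes (y axis) against control siRNA for HIF1A siRNA, HIF2A siRNA and the double knockdown; red marks an adjusted p under 0.05. Only the double knockdown has red points, at 0.69 for PTPRD, 0.68 for KANK2 and -2.66 for UNC13A.

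The libraries held 13263168 to 20451433 counts. Of 8 renal tubule markers, 7 were above 1 CPM in every library, with LRP2 near 0, and their summed level was 926 to 1470 CPM. None of 5 neuronal markers reached 1 CPM throughout (sum 1.42 to 3.55 CPM, STMN2 at 0). Endothelial (0 to 0.432 CPM, PECAM1 at 0) and leukocyte markers (0 to 0.689 CPM, PTPRC and CD3E at 0) were at or near 0. Of the 3 fibroblast markers, COL1A1 stood at 16.6 to 71.1 CPM, while COL1A2 had 0 counts in all libraries but 1, with 1 count, and PDGFRA had 0 to 4 counts.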

How the data were processed

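Per the labels and the paper's methods, the authors trimmed reads with Trim Galore (0.3.3), aligned them to hg19 with HISAT2 (2.05), removed fragments without a unique mapping with Picard (2.0.1), counted fragments per gene with HTSeq (0.5.4p3) and deposited raw counts for 23106 symbols in each of 12 libraries, not normalized. From these, edgeR (4.0.16, R 4.3.3) quasi-likelihood tests were run with TMM, filterByExpr, a block for the replicate number and p-values adjusted over all genes tested (Benjamini-Hochberg). The 9 libraries without the double knockdown (12830 genes) gave the single siRNA comparisons, and all 12 (13000 genes) the others.

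The paper's methods pair conditions by biological replicate. Deviations of same-numbered libraries correlated at 0.0991 to 0.813 and of others at -0.724 to 0.527. Where replicates share a culture history, p-values measure the spread between these samples. Replicates differed by more than sampling noise. Intervals and floors for counts cover counting error only.

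Named genes were the members, HIF1A, EPAS1, called partner genes and 8 set partners, the 5 profiles most like PPFIA4 and the 3 neighbours on each side. Members and lists were chosen with earlier results of these data known, and 1 marker list is not reported here. Promoters came from RefSeq (GRCh38.p14) and lengths from GENCODE v44. Alternatives were DESeq2 (1.42.0) size factors or test, other filters, no block, other libraries in the fit and each replicate or library left out.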

Additional observations from a re-analysis of the deposited data

How the results depend on the processing

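PPFIA4 passed for the double knockdown against HIF2A siRNA under all 21 alternatives, at log2 fold changes of -4.26 to -3.91. The adjusted p was 4.1e-112 to 0.00019 (edgeR, DESeq2 for the smallest), and these p-values are not independent of the choice of PPFIA4. No alternative gave a call to another liprin gene, and the number of liprin genes called did not change. Some differences that gave no call changed sign. PPFIA3 in the interaction was -0.009 with at least 10 counts in every library. Leaving out replicates or libraries gave ranges of -0.194 to 0.052 (PPFIA1), -0.102 to 0.112 (PPFIBP1) and -0.70 to 0.45 (PPFIBP2) for HIF1A siRNA against control siRNA. For HIF2A siRNA against control siRNA they were -0.052 to 0.117 (PPFIA1) and -0.274 to 0.048 (PPFIBP1). For the double knockdown against HIF2A siRNA they were -0.023 to 0.142 (PPFIBP1) and -0.232 to 0.363 (PPFIBP2). Against HIF1A siRNA the ranges were -0.093 to 0.071 (PPFIA1), -0.289 to 0.107 (PPFIA4), -0.132 to 0.004 (PPFIBP1) and -0.808 to 0.182 (PPFIBP2). Against control siRNA, the double knockdown gave -0.164 to 0.227 (PPFIA3) and -0.189 to 0.044 (PPFIBP1). In the interaction they were -0.194 to 0.059 (PPFIA1), -0.186 to 0.190 (PPFIA3), -0.122 to 0.143 (PPFIBP1) and -0.715 to 1.064 (PPFIBP2). The cause was not tested.

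Without the replicate block, PPFIA3 in the double knockdown against control siRNA was -0.003, and the partner genes called were 0 against HIF2A siRNA, 0 against HIF1A siRNA and 1 against control siRNA, where the block gave 1, 1 and 3. Over all genes, the calls without the pairing were 41, 1, 90, 8 and 195 (HIF1A and HIF2A siRNA against control siRNA, then the double knockdown against HIF2A, HIF1A and control siRNA), where the block gave 150, 11, 520, 182 and 1336 and DESeq2 236, 58, 818, 403 and 1842. Without a filter, HIF2A siRNA called 41. With only the 6 compared libraries in the fit, the double knockdown against HIF2A siRNA called 164 genes and 0 partner genes. The partner count against HIF2A siRNA was 2 without a filter, 2 with DESeq2 and 0 with at least 10 counts in every library, a filter that drops UNC13A, and it was 0 against HIF1A siRNA with that filter. Leaving out replicates or libraries gave 0 to 2 against HIF2A siRNA, 0 to 2 against HIF1A siRNA and 1 to 7 against control siRNA, with 1 without replicate 3 and 7 without HIF2A siRNA replicate 2. UNC13A kept its direction in all fits that tested it, and its per-gene values, the fit of 6 libraries and the exon union scale were added after seeing the data. Depth limits PPFIBP2 and UNC13A.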
